A study of Caenorhabditis elegans with 6 samples.

Results

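The lbp genes of Caenorhabditis elegans encode intracellular lipid-binding proteins, small cytosolic or secreted carriers that hold 1 fatty acid or a similar hydrophobic ligand inside a barrel of beta strands. The 9 genes lbp-1 to lbp-9 were taken by name from a table of 22407 genes with counts, and all 9 were found. They were measured in 6 RNA-seq libraries of pooled whole adults of strain AM140, which carries rmIs132, a transgene in which the body wall muscle promoter of unc-54 drives a stretch of 35 glutamines fused to YFP. All 6 libraries therefore come from worms that express this aggregation-prone protein. In 3 libraries the worms ate HT115 bacteria expressing RNAi aimed at the 3'UTR of the gene gtr-1, a neuronal G protein-coupled receptor gene according to the series title, and in the other 3 they ate HT115 with an empty vector (EV). Worms stayed at 20 °C on 1 kind of bacteria for both generations. Eggs of generation 2 were obtained by bleaching parents at day 1 of adulthood, and generation 2, washed free of its own progeny every day, was collected at day 6. The question was which lbp genes differ between gtr-1 RNAi and EV worms.

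Fatty acid carriers of this family move lipids between membranes, enzymes and the nucleus. In the worm, LBP-8 is known to carry a lysosomal lipid made by the lipase LIPL-4 to the nucleus, where the nuclear receptors NHR-49 and NHR-80 act on it. LBP-3 is known as a secreted carrier of a lysosomal lipid signal from the gut to neurons, and LBP-5 is known to bind NHR-49. LBP-1, LBP-2 and LBP-3 begin with signal peptides for secretion.

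The libraries held between 33254426 and 41902475 counts. The targeted gene did not separate the labels: gtr-1 RNAi replicates 1, 2 and 3 held 20, 24 and 19 counts of gtr-1, and EV replicates 1, 2 and 3 held 16, 25 and 20. RNA made by the feeding bacteria may add to them, so they do not settle the worm's own level, and every direction below compares libraries by their labels alone. No label tells whether the replicates are separate cultures, and p-values measure only how much the 6 libraries vary, part of which may be technical. Fewer cells of a type and less RNA per cell cannot be told apart in whole worms. Counts of gtr-1 RNAi replicate 3 stood apart from those of gtr-1 RNAi replicates 1 and 2 (chi-square per degree of freedom over genes 26.6 and 39.6, against 8.53 between replicates 1 and 2 and 10.6 to 18.2 between pairs of EV libraries), and values without it are given for the members and, as counts of calls, for the gene lists. The edgeR quasi-likelihood test called 0 of 14683 genes, 0% in either direction, at a Benjamini-Hochberg adjusted p under 0.05. A second test, the DESeq2 Wald test, was used beside it at the same threshold.

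Positions are those of the WBcel235 build, and 3 of the 9 genes lie directly beside each other. On chromosome X, lbp-3 (WBGene00002255, 3257372 to 3258155), lbp-1 (WBGene00002253, 3259142 to 3259812) and lbp-2 (WBGene00002254, 3260610 to 3261470) follow each other on the + strand, with 986 and 797 bases between them. On chromosome I, lbp-6 (WBGene00002258, 6728296 to 6729376) and lbp-5 (WBGene00002257, 6731267 to 6732276) lie on the - strand with a single protein-coding gene, ant-1.2, between them. On chromosome V, lbp-7 (WBGene00002259, 13879552 to 13880213) and lbp-8 (WBGene00002260, 13890773 to 13891364) share the + strand with other genes between them, among these T22G5.3 and spp-12, and lbp-4 (WBGene00002256, 7820578 to 7821477) and lbp-9 (WBGene00021486, 2068449 to 2069142) lie farther off on the same chromosome. The genes are short, with 2 to 4 exons, 481 to 759 bases of exon and 135 to 165 codons. Exons of mec-6 overlap lbp-6 by 35 bases on the opposite strand, and those of Y40B10A.9 overlap lbp-9 by 5 bases. The strand setting of the counting is not given in the sources used here, so reads in these bases could belong to either gene. The counts of mec-6 were 56 to 86 in gtr-1 RNAi libraries and 77 to 115 in EV libraries, while those of lbp-6 were 2873 to 3934 in gtr-1 RNAi and 1669 to 2398 in EV libraries.

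Levels of the 9 genes spanned more than 3 orders of magnitude, and 1 gene, lbp-9, took the largest share of the family in every library. Levels are given as CPM per kilobase of exon, with CPM scaled by TMM, so that genes of different length can be compared. The level of lbp-9 was 713, 708 and 722 CPM per kilobase in gtr-1 RNAi replicates 1, 2 and 3, against 717, 740 and 770 in EV replicates 1, 2 and 3. Averaged over all libraries this level was above that of 99.1% of tested genes. Of the family's summed CPM per kilobase, lbp-9 took 55.3% ± 1.69 in gtr-1 RNAi libraries and 58.7% ± 1.24 in EV libraries (SD, n = 3 each). The secreted-carrier gene lbp-2 came next, at 14.7% ± 0.906 in gtr-1 RNAi and 13.1% ± 0.794 in EV libraries. At the other end, lbp-7 lay between 5.08 and 7.87 CPM per kilobase over all 6 libraries, and lbp-8 between 0.0553 and 1.09. 

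The order of the levels, from the mean over 6 libraries, was lbp-9, lbp-2, lbp-6, lbp-1, lbp-4, lbp-3, lbp-5, lbp-7 and lbp-8. In every library lbp-9 stood above lbp-2, lbp-2 above lbp-6, lbp-1 above lbp-4, lbp-3 above lbp-5, lbp-5 above lbp-7 and lbp-7 above lbp-8. Taken across libraries, the ranges of 3 neighbouring pairs in this order overlapped: lbp-2 with lbp-6, lbp-6 with lbp-1, and lbp-4 with lbp-3. The order was identical with coding length in place of exon length and with CPM by library size. By group mean 2 pairs changed places, though not in every library. By this mean lbp-6 ranked 3 and lbp-1 ranked 4 in gtr-1 RNAi libraries, against 4 and 3 in EV libraries. Likewise lbp-3 ranked 5 and lbp-4 ranked 6 in gtr-1 RNAi libraries, against 6 and 5 in EV libraries. In EV replicate 1, however, lbp-6 was above lbp-1 (120.9 and 106.9 CPM per kilobase), and in gtr-1 RNAi replicate 3 lbp-4 was above lbp-3 (54.4 and 43.1 CPM per kilobase).

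**Figure D1:**
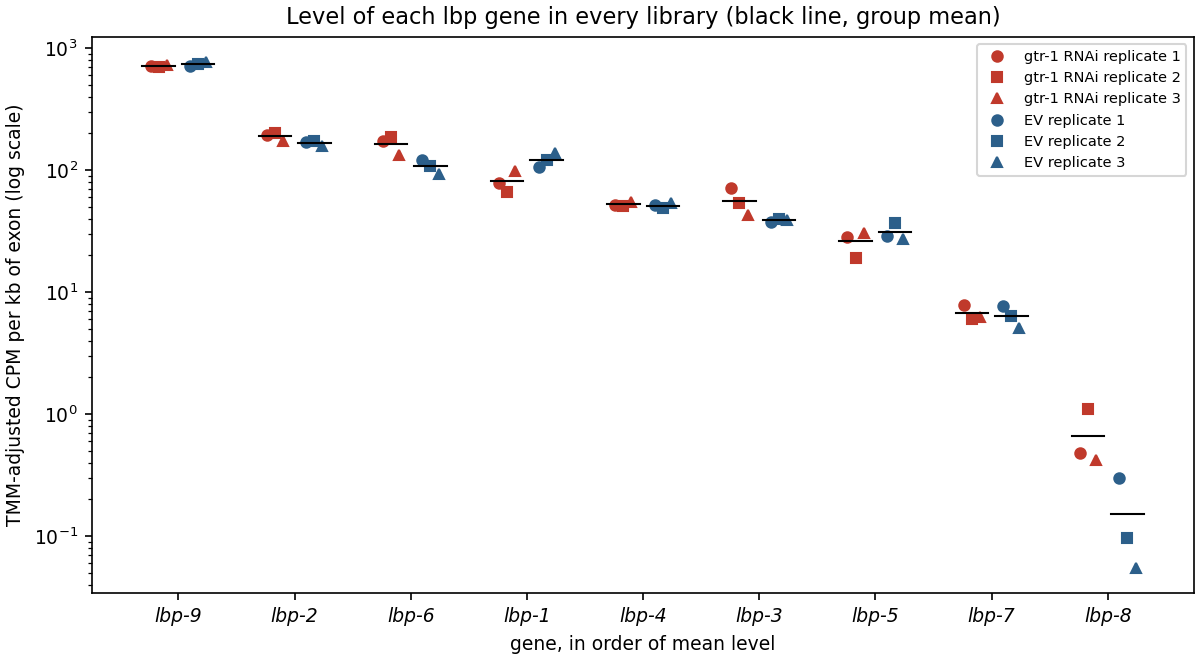
TMM-adjusted CPM per kilobase of exon on a log axis for the 9 lbp genes, 1 point per library, with gtr-1 RNAi left of EV and a line at each group mean. The genes run from lbp-9, at 708 to 770 in all libraries, down to lbp-8, at 0.0553 to 1.09, and lbp-6 and lbp-1 trade places by group mean, while in EV replicate 1 lbp-6 stays above lbp-1.

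As a whole the family did not separate the groups. Its summed level was 779, 765 and 742 CPM in gtr-1 RNAi replicates 1, 2 and 3, against 728, 747 and 750 CPM in EV replicates 1, 2 and 3. As a share of all counts, without TMM, the sum was 0.0746% ± 0.00158 in gtr-1 RNAi and 0.0757% ± 0.00157 in EV libraries (SD, n = 3 each). The groups overlapped on both scales, and which mean was higher turned with the scaling. Within this sum single members went in opposite directions.

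Of the 9 members, 8 passed the filter on low counts and were tested; lbp-8 did not. The edgeR test called 0 of the 8 in either direction. At an unadjusted edgeR p under 0.05, 3 members were higher (lbp-2, lbp-3 and lbp-6) and 1 was lower (lbp-1), where 12.9% of all tested genes were higher and 15.3% lower by that rule. The DESeq2 test called 2 of 8 higher, lbp-6 and lbp-3, and 1 lower, lbp-1, where it called 6.65% of all genes higher and 7.57% lower. In lbp-2, lbp-3, lbp-6 and lbp-1 the CPM of the groups did not overlap, 3 higher and 1 lower, against 16.6% of all tested genes higher and 19.6% lower. The median log2 fold change of the 8 members was 0.052, with a median size of 0.22, while over all tested genes these were -0.0025 and 0.16.

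Of the 8 tested members, lbp-6 had the largest edgeR log2 fold change. It had 91.9, 98.7 and 70.4 CPM in gtr-1 RNAi replicates 1, 2 and 3, against 63.7, 57.4 and 48.7 CPM in EV replicates 1, 2 and 3. All gtr-1 RNAi libraries were above all EV libraries, with replicate 3 the lowest of its group. The edgeR log2 fold change was 0.62 ± 0.16 SE with an adjusted p of 0.113. DESeq2 called the gene higher (0.63 ± 0.13 SE, adjusted p = 0.000289). Leaving out any 1 library kept the edgeR log2 fold change between 0.52 and 0.75. DESeq2 called lbp-6 in 5 of these 6 fits, all but the one without gtr-1 RNAi replicate 1 (adjusted p = 0.0561).

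The nearby gene lbp-5, whose protein binds NHR-49, had overlapping groups. The level of lbp-5 was 13.6, 9.23 and 14.7 CPM in gtr-1 RNAi replicates 1, 2 and 3, against 13.8, 17.8 and 13.1 CPM in EV replicates 1, 2 and 3. Its edgeR log2 fold change was -0.25 ± 0.20 SE (adjusted p = 0.438), with a limma-voom 95% interval from -0.74 to 0.19. Without gtr-1 RNAi replicate 2, the lowest library, it was -0.061, without EV replicate 2, the highest, -0.094, and without gtr-1 RNAi replicate 3 -0.38. The ratio of lbp-6 to lbp-5 per kilobase, which does not depend on the scaling of the libraries, was 6.15, 9.76 and 4.36 in gtr-1 RNAi replicates 1, 2 and 3, against 4.23, 2.95 and 3.40 in EV replicates 1, 2 and 3. The groups did not overlap in this ratio, though gtr-1 RNAi replicate 3 lay close to EV replicate 1. Since lbp-6 alone already separated the groups, the ratio is given as a description. The ADP/ATP carrier gene ant-1.2 between the pair had 0, 4 and 5 counts in gtr-1 RNAi replicates 1, 2 and 3 and 4, 9 and 3 counts in EV replicates 1, 2 and 3.

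The 3 genes of the X chromosome cluster, which encode the carriers with signal peptides, did not all go in the same direction. The log2 fold changes of lbp-3 and lbp-2 were positive and that of lbp-1 was negative. The first, lbp-3, had 44.5, 33.9 and 26.9 CPM in gtr-1 RNAi replicates 1, 2 and 3, against 23.6, 24.9 and 24.6 CPM in EV replicates 1, 2 and 3. The EV libraries lay close together, and the gtr-1 RNAi libraries were all above them but spread widely, with replicate 3 near the EV level. By edgeR the log2 fold change was 0.52 ± 0.18 SE with an adjusted p of 0.131. DESeq2 called lbp-3 higher (0.54 ± 0.16 SE, adjusted p = 0.0111). Without gtr-1 RNAi replicate 1 the edgeR log2 fold change was 0.32. DESeq2 called lbp-3 in 1 of the 6 fits with 1 library left out, the fit without gtr-1 RNAi replicate 3.

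The middle gene of the cluster, lbp-1, had 43.9, 37.1 and 54.7 CPM in gtr-1 RNAi replicates 1, 2 and 3, against 59.3, 67.4 and 76.2 CPM in EV replicates 1, 2 and 3. All gtr-1 RNAi libraries were below all EV libraries. The edgeR test gave a log2 fold change of -0.58 ± 0.16 SE with an adjusted p of 0.118. DESeq2 called lbp-1 lower (-0.57 ± 0.13 SE, adjusted p = 0.00126). DESeq2 called it in 4 of the 6 fits with 1 library left out, and not without gtr-1 RNAi replicate 1 (adjusted p = 0.0732) or without EV replicate 3 (adjusted p = 0.0781). By edgeR these fits gave log2 fold changes between -0.74 and -0.45.

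The last gene of the cluster, lbp-2, had 148, 153 and 132 CPM in gtr-1 RNAi replicates 1, 2 and 3, against 129, 130.5 and 119 CPM in EV replicates 1, 2 and 3. The lowest gtr-1 RNAi library stood just above the highest EV library. A log2 fold change of 0.20 ± 0.063 SE came from edgeR, with an adjusted p of 0.121. DESeq2 gave 0.21 ± 0.078 SE, just short of its threshold (adjusted p = 0.0529). DESeq2 called lbp-2 in 1 of the 6 fits with 1 library left out, that without gtr-1 RNAi replicate 3.

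Because lbp-3 and lbp-1 lay on opposite sides, their ratio differs between the groups by construction, and it is given as a description. The ratio of lbp-3 to lbp-1 per kilobase was 0.901, 0.812 and 0.437 in gtr-1 RNAi replicates 1, 2 and 3, against 0.353, 0.329 and 0.287 in EV replicates 1, 2 and 3. All gtr-1 RNAi libraries were above all EV libraries, with replicate 3 the nearest to them. The ratio of lbp-2 to lbp-1 was 2.46, 3.02 and 1.77 in gtr-1 RNAi replicates 1, 2 and 3, against 1.59, 1.42 and 1.14 in EV replicates 1, 2 and 3, again with no overlap. The protein-coding genes that flank the cluster were near the lower end of detection, with tba-9 at 33 to 36 counts in gtr-1 RNAi and 23 to 41 in EV libraries, and fbxb-71 at 49 to 69 counts in gtr-1 RNAi and 61 to 76 in EV libraries.

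**Figure D2:**
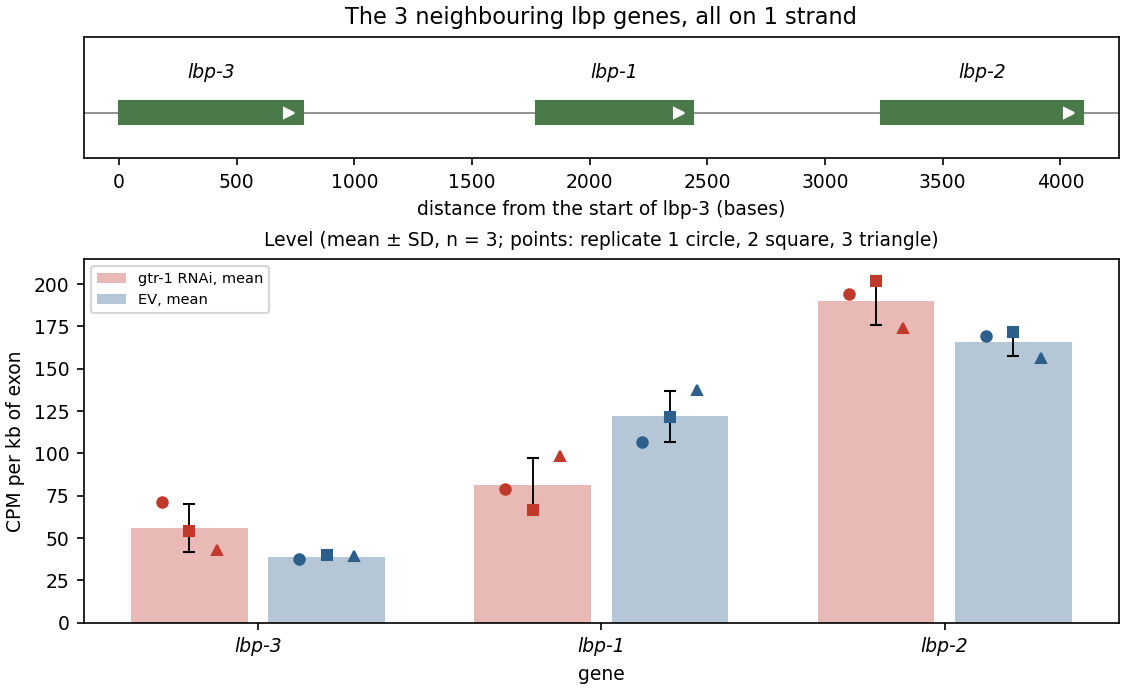
Top, the positions of lbp-3, lbp-1 and lbp-2 by distance in bases from the start of lbp-3. Bottom, their CPM per kilobase of exon as mean ± SD (n = 3 each) with 1 point per library, gtr-1 RNAi left of EV; lbp-1 averaged 81.5 in gtr-1 RNAi and 122 in EV libraries, while lbp-3 averaged 56.2 in gtr-1 RNAi and 39.0 in EV libraries.

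The most abundant member, lbp-9, varied little. It had 402, 399 and 407 CPM in gtr-1 RNAi replicates 1, 2 and 3, against 404.5, 417 and 434 CPM in EV replicates 1, 2 and 3, and the groups overlapped. The edgeR log2 fold change was -0.056 ± 0.037 SE (adjusted p = 0.341), with a limma-voom 95% interval from -0.14 to 0.026. At 14231 to 16630 counts per library lbp-9 was the most deeply counted member. The limma-voom log2 fold change of lbp-6, 0.61, lies outside its interval. The edgeR log2 fold change of lbp-9 was -0.062 without gtr-1 RNAi replicate 3.

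The level of lbp-4 was 30.7, 30.4 and 32.3 CPM in gtr-1 RNAi replicates 1, 2 and 3, against 30.4, 28.8 and 31.7 CPM in EV replicates 1, 2 and 3. The groups overlapped, and the edgeR log2 fold change was 0.039 ± 0.060 SE (adjusted p = 0.699), with a limma-voom 95% interval from -0.096 to 0.18. Scaled by library size alone, its direction turned, to -0.018. It was 0.014 with TMM when gtr-1 RNAi replicate 3 was left out.

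The least abundant members were lbp-7 and lbp-8. The level of lbp-7 was 4.07, 3.11 and 3.21 CPM in gtr-1 RNAi replicates 1, 2 and 3, against 3.98, 3.29 and 2.63 CPM in EV replicates 1, 2 and 3. The groups overlapped, with an adjusted p of 0.852 for an edgeR log2 fold change of 0.066 ± 0.20 SE. The limma-voom 95% interval, from -0.39 to 0.52, is wide enough to hold a change of the size seen in lbp-3 by that method (0.48). Its direction turned without gtr-1 RNAi replicate 1 (-0.062) and without EV replicate 3 (-0.072). It was 0.12 when gtr-1 RNAi replicate 3 was left out.

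The gene for the lysosome-to-nucleus carrier, lbp-8, had 9, 23 and 9 counts in gtr-1 RNAi replicates 1, 2 and 3, against 6, 2 and 1 counts in EV replicates 1, 2 and 3. Every gtr-1 RNAi library was above every EV library, but 1 library held 23 of the 41 gtr-1 RNAi counts. The summed counts of 41 in gtr-1 RNAi and 9 in EV libraries gave a ratio of 4.37, scaled for library size, with a 95% exact binomial interval from 2.09 to 10.2 that covers counting error only. This ratio was 2.92 without gtr-1 RNAi replicate 2 (95% interval 1.25 to 7.39), 8.68 without EV replicate 1 (2.77 to 43.8) and 5.26 without gtr-1 RNAi replicate 3 (2.46 to 12.5). Without the filter on low counts edgeR gave a log2 fold change of 2.09 ± 0.66 SE (adjusted p = 0.124). DESeq2 gave 2.14 ± 0.98 SE and no adjusted p, so lbp-8 counts as not called. 

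The 4 members whose groups did not overlap shared 1 order among the gtr-1 RNAi libraries, in that replicate 3 was nearest to EV. In log2 CPM, gtr-1 RNAi replicate 3 lay closer to the EV mean than gtr-1 RNAi replicates 1 and 2 for lbp-6 (0.32, against 0.71 and 0.81), lbp-3 (0.14, against 0.87 and 0.47), lbp-2 (0.069, against 0.23 and 0.28) and lbp-1 (-0.30, against -0.61 and -0.86). For lbp-4 it lay farthest from the EV mean (0.092, against 0.021 and 0.0048). Over the 6 libraries, lbp-6 and lbp-2 went up and down together (Pearson r = 0.976) and lbp-1 went against lbp-6 (r = -0.992), while r with lbp-6 was -0.018 for lbp-4 and 0.458 for lbp-7. Such values are common in these libraries, since r was over 0.9 with lbp-1 for 1483 and with lbp-6 for 1281 of the 10637 genes searched. Without gtr-1 RNAi replicate 3, edgeR called 3 of 8 members higher (lbp-6, lbp-3 and lbp-2, with log2 fold changes of 0.75, 0.69 and 0.26) and 1 lower (lbp-1, -0.74), where it called 8.77% of all tested genes higher and 15% lower. DESeq2 without this library called the same 3 of 9 members higher and 1 lower, at rates of 9.99% higher and 12.9% lower over all genes, and lbp-8 was not among them (log2 fold change 2.40, adjusted p = 0.0804). The limma-voom test with sample quality weights, which gives divergent libraries less weight, called the same 4 members, 3 higher and 1 lower, at rates of 16.1% higher and 21.6% lower over all genes.

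**Figure D3:**
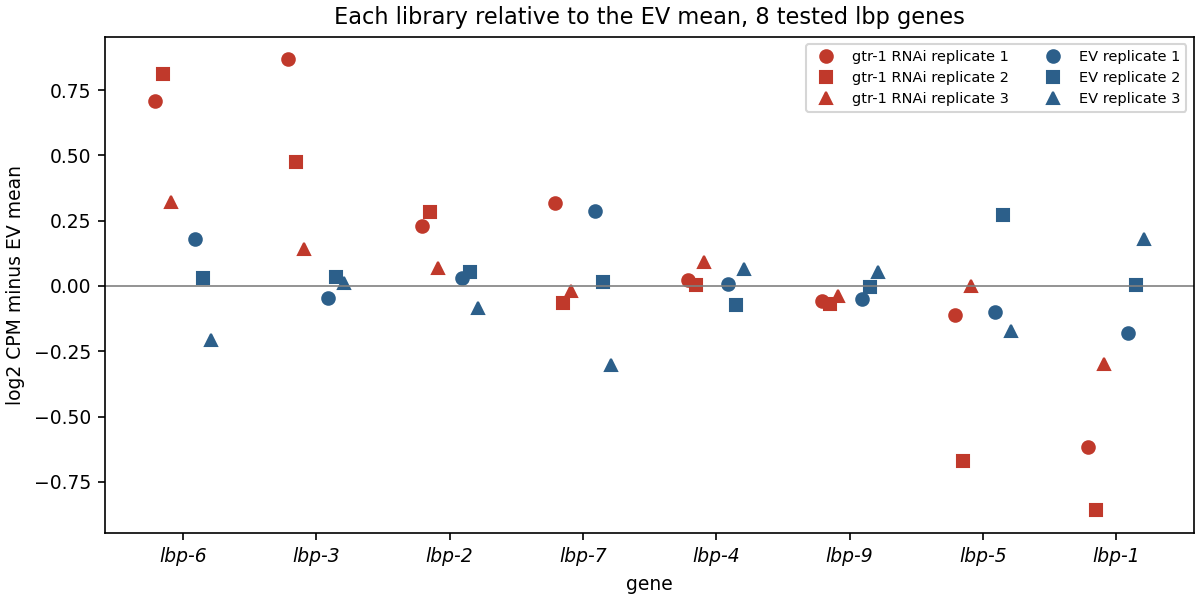
Log2 CPM of each library minus the EV mean for the 8 tested lbp genes, with gtr-1 RNAi left of EV. For lbp-6, lbp-3 and lbp-2 all gtr-1 RNAi points lie above the EV points and for lbp-1 all lie below, with replicate 3 (triangle) the nearest to EV in each.

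**Figure D4:**
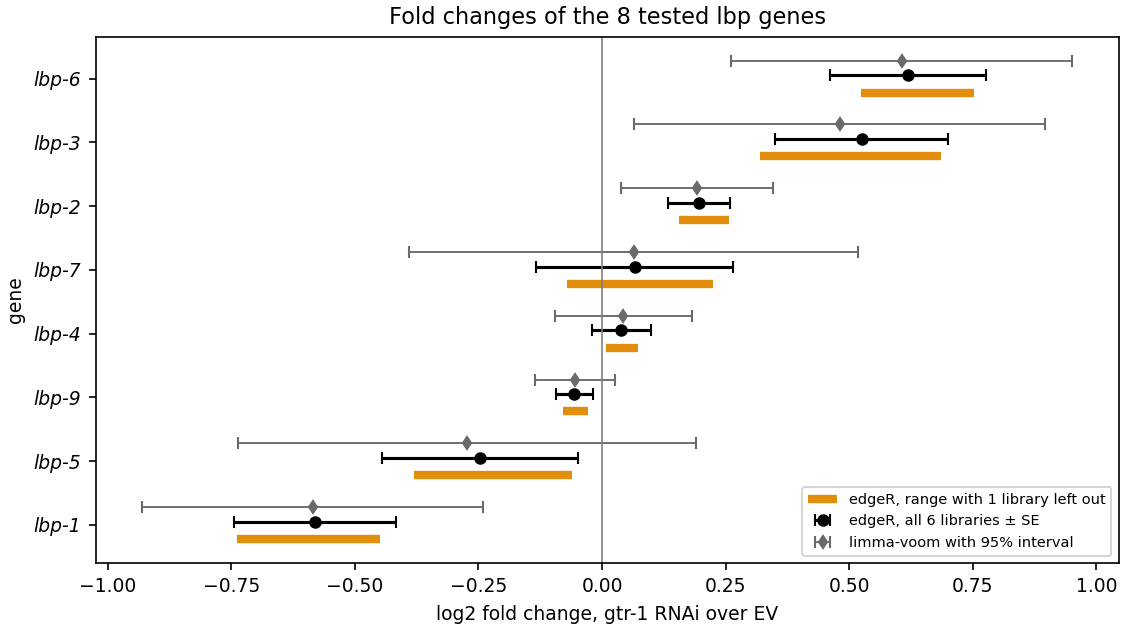
Log2 fold change of gtr-1 RNAi over EV for the 8 tested lbp genes: edgeR estimate ± SE, limma-voom estimate with its 95% interval, and the range of edgeR estimates with 1 library left out. The intervals of lbp-6, lbp-3 and lbp-2 lie above 0 and that of lbp-1 below 0, while those of lbp-7, lbp-4, lbp-9 and lbp-5 include 0; these intervals are not adjusted for the number of genes.

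Genes whose log2 CPM followed a member most closely over the 6 libraries were of several kinds. The glucuronosyltransferase gene ugt-46 was nearest to lbp-6 (Pearson r = 0.999), at 26.9, 30.9 and 16.5 CPM in gtr-1 RNAi replicates 1, 2 and 3 and 13.1, 10.3 and 7.82 CPM in EV replicates 1, 2 and 3. The haem carrier gene hrg-3 was nearest to lbp-3 (r = 0.999), at 16.4, 8.38 and 4.68 CPM in gtr-1 RNAi replicates 1, 2 and 3 and 3.37, 3.60 and 3.50 CPM in EV replicates 1, 2 and 3. As with lbp-3, the EV libraries lay close together and gtr-1 RNAi replicate 1 was the highest. Nearest to lbp-1 was R05D3.3 (r = 0.9995), to lbp-2 H20E11.3 (r = 0.997), to lbp-4 the hedgehog-related gene wrt-5 (r = 0.981), to lbp-5 C24A3.2 (r = 0.991), to lbp-7 fbxa-26 (r = 0.990) and to lbp-9 Y25C1A.14 (r = 0.995). These values rest on 6 libraries that share their scaling, and are descriptions.

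Genes known to act with the lbp proteins were described by the same tests, for lists chosen with earlier results of these data known, and their DESeq2 counts stand against 6.65% of all genes called higher and 7.57% called lower. Of 9 genes of the lysosomal lipid signal and its receptors, edgeR called 0, and DESeq2 called 0 higher and 1 lower, the lipase gene lipl-4 (3.38 ± 0.297 CPM in gtr-1 RNAi and 5.5 ± 0.216 CPM in EV libraries, SD, n = 3 each; DESeq2 log2 fold change -0.69 ± 0.19 SE, adjusted p = 0.00472). The direction of lipl-4 was thus opposite to that of the lbp-8 counts. The nuclear receptor gene nhr-49 was at 138 ± 3.59 CPM in gtr-1 RNAi and 155 ± 7.40 CPM in EV libraries (edgeR log2 fold change -0.17 ± 0.044 SE, adjusted p = 0.112), and nhr-80 at 9.77 ± 1.56 CPM in gtr-1 RNAi and 7.62 ± 1.27 CPM in EV libraries (0.36 ± 0.17 SE, adjusted p = 0.207). The neuropeptide gene nlp-11, known to act downstream of LBP-3 in neurons, was at 5.03 ± 0.172 CPM in gtr-1 RNAi and 3.89 ± 0.645 CPM in EV libraries (0.37 ± 0.16 SE by edgeR, adjusted p = 0.169). The list's median log2 fold change was 0.099. Without gtr-1 RNAi replicate 3, a setting added after the data were seen, DESeq2 called 1 of the 9 higher, nhr-80, and 2 lower, lipl-4 and mdt-15. In that setting it called 9.99% of all genes higher and 12.9% lower.

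Of 15 genes known as targets of NHR-49, edgeR called 0, and DESeq2 called 0 higher and 3 lower. These 3 were the transhydrogenase gene nnt-1 (DESeq2 log2 fold change -0.76 ± 0.16 SE, adjusted p = 0.000258), the lipase gene lipl-2 (-0.96 ± 0.24 SE, adjusted p = 0.00270) and the acyl-CoA synthetase gene acs-11 (-0.35 ± 0.11 SE, adjusted p = 0.0241). The list's median log2 fold change was -0.36, with 11 of 15 values negative, while the median over all tested genes was -0.0025. The list's summed level was 1584 to 2047 CPM in gtr-1 RNAi and 2290 to 2842 CPM in EV libraries, with no overlap. The genes that differed most in mean CPM were icl-1, sodh-1 and acs-2, and DESeq2 called none of them (adjusted p = 0.0972, 0.124 and 0.172). In gtr-1 RNAi libraries they were at 636 ± 140, 85.1 ± 88.65 and 61.7 ± 44.6 CPM (SD, n = 3). In EV libraries they were at 908.5 ± 142, 321 ± 88.2 and 168 ± 38.8 CPM (SD, n = 3), and for icl-1 the groups overlapped. DESeq2 called 0 of the 15 higher and 8 lower without gtr-1 RNAi replicate 3, where 12.9% of all genes were called lower.

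Other carriers of fatty acids and their CoA esters had calls in both directions. Of 8 genes for secreted fatty acid and retinol binding proteins, 7 had a DESeq2 adjusted p and 1 was called higher, far-5 (8.78 ± 1.74 CPM in gtr-1 RNAi and 5.91 ± 0.505 CPM in EV libraries; DESeq2 log2 fold change 0.58 ± 0.19 SE, adjusted p = 0.0219), with 0 lower, and 7 of the 8 edgeR log2 fold changes were positive (median 0.23). Of 5 tested acyl-CoA binding protein genes DESeq2 called 0 higher and 1 lower, acbp-3 (8.34 ± 2.83 CPM in gtr-1 RNAi and 13.4 ± 1.28 CPM in EV libraries; -0.67 ± 0.21 SE, adjusted p = 0.0193), and 4 of 5 edgeR values were positive (median 0.26). Of 17 tested acyl-CoA synthetase genes DESeq2 called 3 higher, acs-1, acs-5 and acs-12, and 2 lower, acs-11 and acs-17, with a median edgeR log2 fold change of -0.12. Of 7 tested lysosomal-type lipase genes it called 1 higher, lipl-5, and 4 lower, lipl-1 to lipl-4, with a median of -0.97. The summed level of the lipase list nevertheless was higher in gtr-1 RNAi libraries, at 467 to 749 CPM, against 384 to 411 CPM in EV libraries. Its largest part was lipl-5, at 559 ± 155 CPM in gtr-1 RNAi and 312 ± 26.9 CPM in EV libraries. The sums of the other lists in this paragraph overlapped between the groups. Over all genes DESeq2 called 6.65% higher and 7.57% lower, and in each of these 4 lists edgeR called 0 genes. With gtr-1 RNAi replicate 3 left out, DESeq2 called 3 higher and 1 lower of the fatty acid and retinol binding protein genes and 2 higher and 1 lower of the acyl-CoA binding protein genes. The same setting gave 3 higher and 3 lower among the acyl-CoA synthetase genes and 1 higher and 6 lower among the lipase genes, against 9.99% higher and 12.9% lower over all genes.

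Of 5 lists of tissue markers, 2 did not overlap between the groups in their summed level, and edgeR called 0 genes in any of them. The summed level of 12 hypodermis markers was 363 to 505 CPM in gtr-1 RNAi and 529 to 636 CPM in EV libraries, and DESeq2 called 0 of the 10 it gave an adjusted p. The cuticle collagen gene sqt-3, a large part of that sum, had 47.8, 26.3 and 149 CPM in gtr-1 RNAi replicates 1, 2 and 3, against 176, 257 and 275 CPM in EV replicates 1, 2 and 3, an order of libraries also seen in lbp-1. Another collagen gene of the list, col-19, went the other way. It had 263, 171 and 162 CPM in gtr-1 RNAi replicates 1, 2 and 3, against 151, 142.5 and 87.1 CPM in EV replicates 1, 2 and 3. By edgeR, 4 of the 12 hypodermis markers had positive log2 fold changes and 8 negative ones (median -0.20). The lower hypodermis sum therefore does not stand for all of these markers. The sum of 12 early embryo markers was 29.7 to 37.6 CPM in gtr-1 RNAi and 40.8 to 52.2 CPM in EV libraries. Of the 4 that DESeq2 gave an adjusted p it called 1, the GATA factor gene elt-1, lower. This gene was the largest part of the sum, and the endoderm genes end-1 and end-3 were under 1 CPM throughout. Of the 7 early embryo markers tested by edgeR, 5 had positive log2 fold changes and 2, elt-1 among them, negative ones (median 0.086). The lower sum therefore does not stand for most of these markers. The edgeR median of this list was -0.074 without gtr-1 RNAi replicate 3. The sums of 11 intestine markers (1895 to 2037 CPM in gtr-1 RNAi and 1808 to 2326 CPM in EV libraries), 12 body wall muscle markers (2755 to 3203 CPM in gtr-1 RNAi and 2223 to 3166 CPM in EV libraries) and 6 pharynx markers (72.8 to 103 CPM in gtr-1 RNAi and 85.5 to 120 CPM in EV libraries) overlapped. DESeq2 called 3 of the intestine markers higher, the proton pump gene vha-6, the actin gene act-5 and the sphingosine phosphate lyase gene spl-1. The intestine list was split, however, with 6 positive and 5 negative edgeR log2 fold changes (median 0.044). Among the muscle and pharynx markers DESeq2 called 0. Over all genes DESeq2 called 6.65% higher and 7.57% lower. Without gtr-1 RNAi replicate 3 the summed level of the hypodermis markers was 363 to 478 CPM and that of the early embryo markers 29.7 to 31.2 CPM in gtr-1 RNAi libraries. In that setting DESeq2 called 1 higher and 5 lower of the 12 hypodermis markers and 0 higher and 1 lower of 8 early embryo markers. It called 4 higher and 1 lower of 11 intestine markers. Of 12 muscle markers it called 0 higher and 1 lower, and of 6 pharynx markers 0 higher and 2 lower. Over all genes it called 9.99% higher and 12.9% lower in that setting. No marker gene was at 0 in all 6 libraries. The part of these shifts in the values of lbp-1 and the other members was not tested.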

How the data were processed

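RNA from pooled whole worms was made into stranded mRNA libraries, per the labels' protocols. The submitters' processing notes name STAR, HTSeq and WBcel235; versions and strand setting are not stated in the sources used here. The authors' deposited table holds whole-number counts per gene, which were tested, and DESeq2-normalized values, a signal equal to the deposited counts divided by 1 factor per library, which were not. Columns headed GT and a number were matched to the gtr-1 RNAi titles of that number.

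The 9 members, the gene lists and the tests were chosen with earlier results of these data known. The 3 gtr-1 RNAi and 3 EV libraries were compared without covariates by edgeR 4.0.16 in R 4.3.3 (filterByExpr, 14683 genes; TMM; robust quasi-likelihood F test; Benjamini-Hochberg over all genes tested; threshold 0.05). Alternatives were DESeq2 1.42.0, limma-voom 3.58.1, other scalings, filters and thresholds, leaving out each library, and a replicate block. Positions and lengths came from Ensembl's WBcel235 annotation. Log2 CPM used a prior count of 2. Named were the members, list and marker genes called by DESeq2 with all 6 libraries, and the gene with the highest Pearson correlation to each tested member among those with a mean log2 CPM over 1. Genes beside members were taken by position. The genes nhr-49, nhr-80, nlp-11, mdt-15, icl-1, sodh-1, acs-2, sqt-3, col-19, end-1 and end-3 were named after their values were seen. No pair of libraries of a group agreed within sampling noise. Sequences of the members were not used here.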

Additional observations from a re-analysis of the deposited data

How the results depend on the processing

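Of 201 log2 fold changes of members under the alternatives, 196 kept their direction. These 196 include the threshold of 0.1, which cannot alter a fold change. They also include edgeR without robust estimation, whose fold changes equalled the main ones. Those that turned were lbp-4 with library size alone (-0.018) and lbp-7 without gtr-1 RNAi replicate 1 (-0.062 by edgeR, -0.053 by DESeq2) and without EV replicate 3 (-0.072 by edgeR, -0.058 by DESeq2); the cause was not tested. The edgeR test called 0 members higher and 0 lower. The calls were 2 higher and 1 lower with DESeq2, 3 and 1 with limma-voom and sample quality weights, 2 and 1 with the replicate block in edgeR (3.18% and 3.35% of all genes), and 3 and 1 with the replicate block in DESeq2 (5.4% and 6.85%). With 1 library left out in turn they ranged from 0 to 3 higher and from 0 to 1 lower, over edgeR and DESeq2 fits; edgeR made calls only without gtr-1 RNAi replicate 3. The other scalings, filters, the threshold of 0.1, edgeR without robust estimation, plain limma-voom and leaving out the 10 most abundant genes gave 0 and 0. The replicate block rests on no stated pairing: over all genes, same-numbered libraries correlated at 0.24, -0.11 and 0.20 in their deviations from the group means, so the numbers were not taken to pair them. Of the genes in the lists of the pathway, edgeR called 0, DESeq2 5 higher and 8 lower, and edgeR with the block 2 higher and 1 lower. Over all genes DESeq2 called 6.65% higher and 7.57% lower, and edgeR with the block 3.18% and 3.35%. Without gtr-1 RNAi replicate 3, chosen after seeing the data, edgeR called 9 list genes higher and 13 lower, and DESeq2 10 and 17. Calls rose over all genes as well in this setting, to 8.77% higher and 15% lower by edgeR and 9.99% and 12.9% by DESeq2. The scaling by library size moved the median log2 fold change of all tested genes to -0.060, from -0.0025 with TMM. Coding length was taken from the annotation. Depth limits lbp-8 most, at 1 to 23 counts per library.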
